A study of Mus musculus with 12 samples.

Results

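The complement genes described here are 8 genes for components and receptors of the complement system in mouse macrophages, taken by name from a table of 43278 gene symbols. They are C1qa, C1qb and C1qc, which encode the chains of C1q, C3, Cfb (factor B), Cfp (properdin), and the receptor genes C3ar1 and C5ar1. All 8 were in the table, and all 8 reached a normalized count of 10 in at least 3 of the 12 libraries. RNA was sequenced from thioglycolate-elicited peritoneal macrophages (PMφs) of WT C57BL/6J mice, 8 to 12 weeks of age, in 4 groups of 3 libraries. Every culture was harvested 4 days after the thioglycolate injection and kept 18 h in culture before use. The control group received neither agent, the oxLDL group took up human oxidized low-density lipoprotein for 24 h at 100 µg/ml, the LPS group received 10 ng/ml of LPS, a bacterial product that activates TLR4, and the oxLDL+LPS group received the lipoprotein followed by LPS. How long the LPS treatment lasted is not stated for these libraries. The study's methods describe pools made from littermates of both sexes, each pool being split over the groups. By that account a replicate is a pool rather than an animal, but the sex-linked genes below do not show both sexes in every library. Values are normalized counts, that is the authors' counts per gene after each library was divided by its own scaling factor and the result rounded.

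Complement is a set of proteins that tags microbes, immune complexes and dying cells. C1q binds to such surfaces and starts the classical pathway, C3 is cleaved in every pathway to coat the surface and to release C3a, factor B supplies the protease of the C3-cleaving enzyme of the alternative pathway, and properdin stabilizes that enzyme. C3a and C5a are small peptides that activate and attract leukocytes through the receptors encoded by C3ar1 and C5ar1. The liver makes most circulating complement, whereas C1q comes largely from macrophages and dendritic cells.

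With LPS, Cfb and C3 rose and C3ar1 fell, whether or not oxLDL had been given before, and the C1q genes, Cfp and C5ar1 were not called in either LPS comparison in the fit of the authors' scaled values without pairing. Of the 6 pairs of libraries that share a replicate number and differ in oxLDL, C1qa and C1qb were lower with oxLDL in all 6 and C1qc in 5. Pairs of the same number may hold the same cells with and without LPS, so the 6 may not be independent. How many of all genes were lower in all 6 pairs was not counted. With all libraries kept, the difference of the C1q genes with oxLDL was called only when the replicate number was used as a block. It was then called for all 3 C1q genes with LPS and for C1qa without LPS. Over all genes tested, 8.74% were called lower in that fit with LPS and 2.92% without LPS. The calls with LPS were lost without number 1 or without number 3, and that of C1qa without LPS was lost without number 2. The C1qa call without LPS was lost when the block was fitted over all 12 libraries (adjusted p = 1, limma). That fit treats number 1 as the same cells with and without LPS, which does not hold here.

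Summed over all genes, the normalized counts were 17.15 to 17.71 M in control libraries, 17.44 M in each oxLDL library, 22.59 to 26.38 M in LPS libraries and 22.07 to 23.35 M in oxLDL+LPS libraries. The number of reads behind them was not recovered. Of 6 listed macrophage markers 5 were in the table, and their summed normalized count was 60054 to 68811 in control, 58390 to 60274 in oxLDL, 77726 to 96154 in LPS and 77362 to 80898 in oxLDL+LPS libraries. Over the 12 libraries Cd68 ranged from 35765 to 51371, Csf1r from 7579 to 17280 and Mertk from 2199 to 8006. Cd14 ranged from 1009 to 23478 and Fcgr1 from 436 to 8081, so the sum is not a measure of macrophage number. The sum of 5 large peritoneal macrophage markers was 448 to 744 in control, 456 to 630 in oxLDL, 692 to 1067 in LPS and 607 to 806 in oxLDL+LPS libraries. All 7 listed markers of mesothelial cells and fibroblasts were present as well, with Col1a1 reaching 12012, and their sum ranged from 5131 to 22573 in control, 5327 to 18544 in oxLDL, 5765 to 29060 in LPS and 4861 to 16580 in oxLDL+LPS libraries. Of 6 neutrophil markers, Ly6g was at 0 in all 12 libraries and S100a8 reached 248, and their sum was 38 in each control library, 31 to 49 in oxLDL, 79 to 179 in LPS and 126 to 258 in oxLDL+LPS libraries. Of 5 eosinophil markers, Prg2 and Ear6 were at 0 in all 12 libraries and Siglecf reached 383, and their sum was 319 to 385 in control, 182 to 305 in oxLDL, 104 to 125 in LPS and 58 to 107 in oxLDL+LPS libraries. The other neutrophil markers, S100a9, Mpo, Elane and Camp, and the other eosinophil markers, Epx and Ccr3, stayed at or below 10. The neutrophil sum was thus mainly S100a8 and was higher with LPS. The eosinophil sum was mainly Siglecf and was lower with LPS, and lower in oxLDL than in control libraries. The part of both sums in the results was not tested. Each listed T cell, B cell, mast cell and dendritic cell gene stayed at or below 84. In a bulk library, fewer cells of a type and less RNA per cell cannot be told apart. Tnf, a cytokine gene that LPS induces, was at 50 to 89 in the 6 libraries without LPS and at 20752 to 85240 in the 6 with LPS. Il1b, another LPS-induced cytokine gene, was at 7 to 20 without LPS and at 7630 to 152939 with it. Cd36, a receptor gene for oxLDL, was at 32725 to 40346 in control and at 53483 to 93423 in oxLDL libraries.

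The libraries numbered 1 did not all hold the same cells. Xist, which is transcribed from the inactive X chromosome, was at 1 and 2 in control and oxLDL replicate 1 but at 6331 and 3812 in LPS and oxLDL+LPS replicate 1, and the Y-linked gene Ddx3y was at 1156 and 1132 against 459 and 439. Libraries numbered 2 had Ddx3y at 0, 0, 2 and 0 and Xist at 6730, 5933, 7751 and 6085. Those numbered 3 held both, with Ddx3y at 707 to 775 and Xist at 3538 to 4217. A replicate number therefore links the libraries with and without oxLDL, whereas number 1 does not link the libraries with and without LPS. The sex of the cells thus differed between replicate numbers and, in number 1, between libraries with and without LPS. Its part in the results was not tested. Some LPS results are also given without number 1, only for genes among the complement components and receptors listed first. For other complement genes, LPS calls are given with number 1 kept, and fits without it are not shown gene by gene.

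On GRCm38 the C1q genes lie side by side on the minus strand of chromosome 4, C1qb at chr4:136880129-136886187, C1qc at chr4:136889804-136893065 and C1qa at chr4:136895917-136898803, within 18.68 kb. C3 lies at chr17:57203970-57228136 and Cfb at chr17:34856374-34862518, next to C2. Cfp is on the X chromosome at chrX:20925454-20931555, C3ar1 at chr6:122847138-122856161 and C5ar1 at chr7:16246743-16259540. All are protein-coding genes on the minus strand. Of the 2825 exon bases of Cfb, 79.5% are also exon bases of Gm20547, a read-through gene that joins Cfb and C2 and was listed at 0 in every library. How the counting handled reads in shared exons is not stated, so the level of Cfb is uncertain.

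The bases just upstream of the start sites are shown for the genes whose levels moved with LPS or oxLDL and whose promoter window holds a searched motif. They come from RefSeq on GRCm38.p6, which had windows of 250 bases for 6 of the 8 genes and none for C1qa and Cfb, and bases that GENCODE places inside a gene were left out. Capitals mark a match to GAGGAA (the core bound by PU.1, a macrophage transcription factor), TTGCNNAA (C/EBP), TGANTCA (AP-1) or TATAAA, where N is any base. TTCNNNGAA (GAS), the ISRE and the NF-kB consensus were searched too, all on both strands.
C1qb, chr4:136886201-136886450, minus strand: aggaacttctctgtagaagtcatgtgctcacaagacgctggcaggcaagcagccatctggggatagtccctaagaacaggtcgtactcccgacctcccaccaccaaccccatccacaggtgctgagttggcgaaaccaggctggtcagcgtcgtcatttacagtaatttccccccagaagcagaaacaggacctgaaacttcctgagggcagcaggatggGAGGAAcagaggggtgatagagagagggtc
C1qc, chr4:136893066-136893164, minus strand: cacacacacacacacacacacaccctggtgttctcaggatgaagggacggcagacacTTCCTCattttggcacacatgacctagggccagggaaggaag
C3, chr17:57228137-57228386, minus strand: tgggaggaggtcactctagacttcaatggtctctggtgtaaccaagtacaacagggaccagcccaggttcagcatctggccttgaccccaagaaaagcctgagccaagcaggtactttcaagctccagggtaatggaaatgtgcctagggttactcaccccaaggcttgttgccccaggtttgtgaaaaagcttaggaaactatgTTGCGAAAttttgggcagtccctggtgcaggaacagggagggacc
C3ar1, chr6:122856162-122856407, minus strand: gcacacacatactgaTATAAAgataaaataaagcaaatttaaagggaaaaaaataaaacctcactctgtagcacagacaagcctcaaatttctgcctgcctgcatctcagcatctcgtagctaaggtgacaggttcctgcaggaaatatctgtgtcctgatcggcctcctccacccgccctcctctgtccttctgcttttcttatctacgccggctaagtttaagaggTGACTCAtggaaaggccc
The PU.1 core stood at positions -30 to -25 of C1qb and, on the other strand, at -193 to -188 of C1qc, counted from the RefSeq start. C3 held the C/EBP pattern at -45 to -38, and C3ar1 held the AP-1 pattern at -22 to -16 and TATAAA at -235 to -230. C1qc also held a match to the NF-kB consensus at -41 to -32, in bases that GENCODE places inside the gene and that are not printed. Over all 32851 promoter windows of the same length, the share with a match was 23.3% for PU.1, 9.56% for C/EBP, 6.75% for AP-1, 12.4% for TATAAA and 3.9% for NF-kB. The GAS and ISRE patterns of the interferon response, present in 7.02% and 2.98% of windows, were in none of the 6 windows. A match says only that these letters are present.

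Divided by exon length, the genes spanned a wide range of levels in control PMφs. C1qb and C3ar1 were highest, at 5114 ± 1417 and 4796 ± 243.9 normalized counts per kb (SD, n = 3), and their ranges overlapped. C1qc followed at 2079 ± 461.7 and C1qa at 1833 ± 355.6, again with overlapping ranges. C5ar1 was at 1077 ± 448.3, Cfp at 759.6 ± 94.67 and C3 at 509.4 ± 198.8. The range of C5ar1 overlapped those of Cfp and C3, whereas the highest C3 value, 648.8 per kb, lay just under the lowest Cfp value, 650.3 per kb. Cfb was lowest, at 1.89 ± 0.41 per kb. In LPS libraries C1qb was still highest, at 6360 ± 2382 per kb, and C3, at 2942 ± 808.7, stood among C1qa, C3ar1 and C1qc, whose levels lay between 2313 and 2694 per kb with ranges that overlapped that of C3. Cfb reached 246.0 ± 50.2 per kb in LPS libraries and remained the lowest of the 8.

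**Figure D1:**
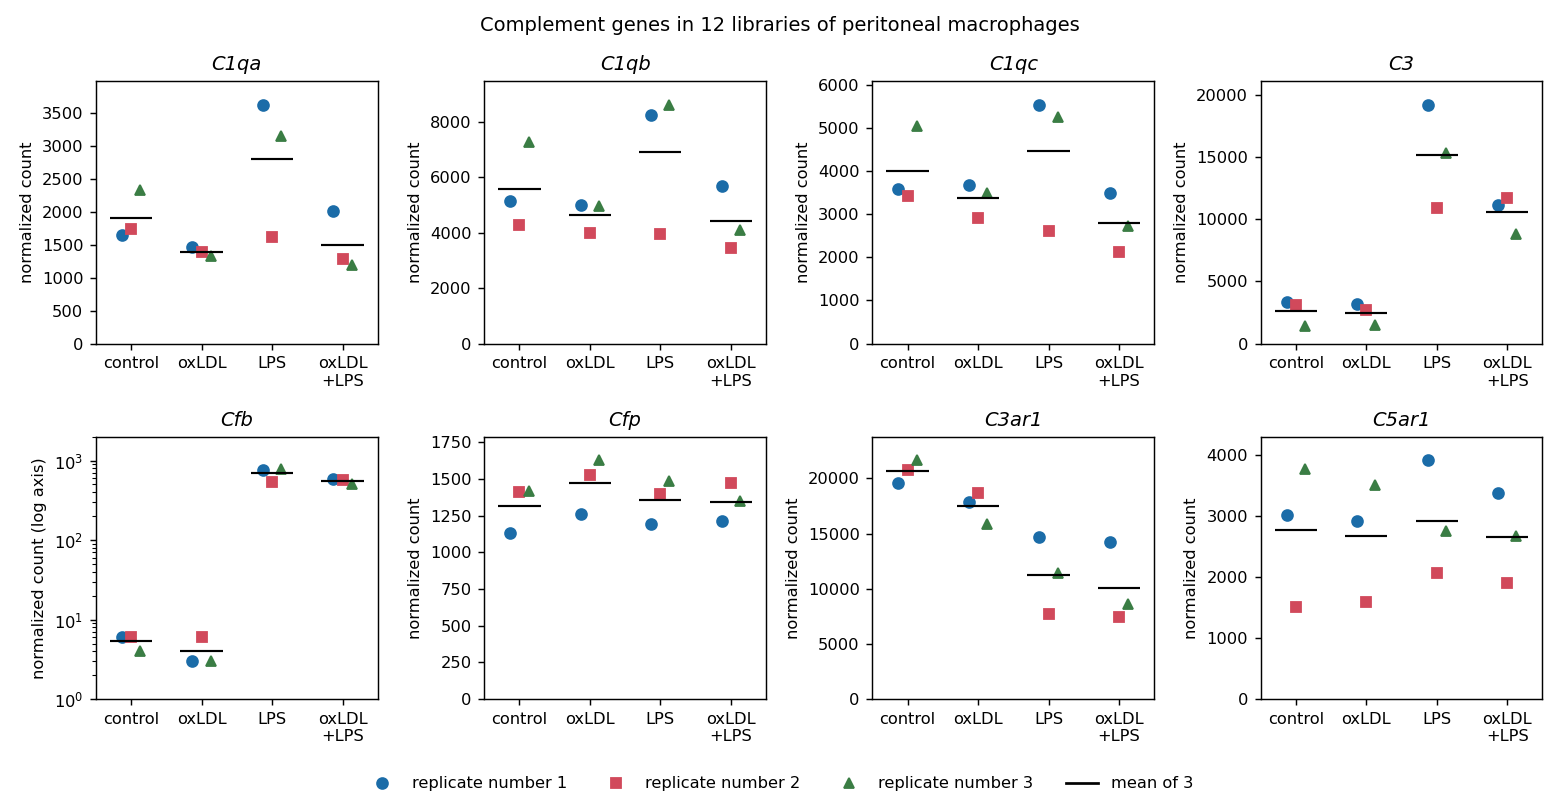
Normalized count of each gene (y axis, from 0 except for Cfb, whose axis is a log scale) in the 12 libraries by group (x axis), with the replicate number as colour and symbol and the mean of 3 as a line. Cfb and C3 are higher and C3ar1 is lower in every LPS library than in every library without LPS, and C5ar1 is lowest in replicate 2 of each group.

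The comparison of LPS with control PMφs asked how an inflammatory stimulus changed these genes. Cfb was nearly silent in control PMφs, at normalized counts of 6, 6 and 4, and stood at 763, 532 and 790 in LPS PMφs. The groups were far apart, and the ratio of the means was 130.3. On the log2(normalized count + 1) scale the difference was 6.78 (SE 0.24, adjusted p = 5.90e-07, limma with Benjamini-Hochberg adjustment over 13023 genes). Cfb reached the filter of 10 in 3 libraries only through the LPS group, where it was high, so it could enter this test only by differing, and with the filter applied to every library it was not tested. With pseudocounts of 0.5 and 5 the difference was 6.90 and 6.07.

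C3 was at 3337, 3074 and 1449 in control and at 19191, 10879 and 15315 in LPS PMφs. Every LPS library exceeded every control library, with a 5.77-fold ratio of the means and a log2 difference of 2.58 (SE 0.34, adjusted p = 0.000428, limma). Replicate 3 had the lowest C3 of the control libraries and the largest rise, 3.40 on the log2 scale against 2.52 and 1.82 in numbers 1 and 2. The summed mesothelial and fibroblast markers were also lowest in replicate 3, at 22573, 15656 and 5131 in control and 29060, 13693 and 5765 in LPS libraries, and their part in the level of C3 was not tested.

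C3ar1, which encodes the receptor for C3a, moved the other way. It was at 19539, 20779 and 21627 in control and at 14698, 7710 and 11468 in LPS PMφs, so the groups did not overlap and the mean in LPS was 0.55 of that in control. The log2 difference was -0.92 (SE 0.22, adjusted p = 0.00886, limma). Without the libraries numbered 1, C3 and C3ar1 were still called, at 2.61 and -1.17 (adjusted p = 0.00478 and 0.00911, limma), and Cfb no longer reached the filter because only 2 LPS libraries were left.

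The C1q genes were not called in this fit, and their LPS libraries disagreed. C1qa was at 1650, 1738 and 2330 in control and at 3629, 1624 and 3152 in LPS PMφs. C1qb was at 5153, 4270 and 7269 against 8223, 3935 and 8600. C1qc was at 3581, 3421 and 5039 against 5536, 2619 and 5246. For each chain the LPS libraries 1 and 3 were above the highest control value and LPS replicate 2 was below the lowest. The log2 differences were 0.49 for C1qa (95% interval -0.19 to 1.17), 0.27 for C1qb (-0.48 to 1.01) and 0.10 for C1qc (-0.58 to 0.78), with adjusted p of 0.193, 0.517 and 0.799 in limma. Without LPS replicate 2 they were 0.84, 0.63 and 0.45 and all 3 were called, with adjusted p of 0.00566, 0.0469 and 0.0743. With the replicate number as a block C1qa was called as well (adjusted p = 0.0758, limma), although number 1 links different cells in this comparison, and without replicate 1 the difference of C1qc was -0.16.

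C5ar1, the receptor gene for C5a, was at 3015, 1511 and 3775 in control and at 3908, 2060 and 2758 in LPS PMφs, and Cfp was at 1129, 1408 and 1419 against 1194, 1397 and 1483. The ranges overlapped for both genes, and the log2 differences were 0.12 (95% interval -0.70 to 0.95) and 0.04 (-0.25 to 0.34). In this comparison 2 of the 8 genes, Cfb among them, were called higher and 1 lower, beside 31.4% of all 13023 genes tested called higher and 30.3% called lower, and 34.6% and 34.1% with the replicate block. The median log2 difference of the 8 genes was 0.19, against -0.001 over all genes tested. With every library scaled to the same total, the median of all genes shifted to -0.48, and C1qb, C1qc, C5ar1 and Cfp turned negative, at -0.22, -0.38, -0.36 and -0.44. Cfp was then called lower (adjusted p = 0.00716, limma), which made 2 of the 8 genes higher and 2 lower, and Cfb, C3 and C3ar1 kept their directions and calls.

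The response to LPS after oxLDL, compared with oxLDL alone, used the other 6 libraries. Cfb was at 3, 6 and 3 in oxLDL and at 582, 566 and 511 in oxLDL+LPS PMφs, a log2 difference of 6.84 (SE 0.27, adjusted p = 2.26e-06, limma). C3 was at 3151, 2664 and 1454 in oxLDL and at 11145, 11701 and 8829 in oxLDL+LPS PMφs, a difference of 2.19 (SE 0.28, adjusted p = 0.000594). C3ar1 was at 17890, 18673 and 15857 against 14208, 7462 and 8653, a difference of -0.84 (SE 0.23, adjusted p = 0.0197). None of these groups overlapped. C3 and C3ar1 were called in the same directions in the absence of oxLDL, as was Cfb, which entered both fits only through its LPS libraries. C1qa, C1qb, C1qc, Cfp and C5ar1 differed by 0.07, -0.10, -0.30, -0.13 and 0.02, all with overlapping ranges. Of these C1qc was called with the replicate block (adjusted p = 0.0330, limma, and 0.160 with the block fitted over all 12 libraries). In this comparison too, number 1 links different cells. With every library scaled to the same total, which shifted the median of all genes to -0.40, the differences of C1qa and C5ar1 turned negative, at -0.32 and -0.37, and C1qb, C1qc and Cfp were called lower, at -0.49, -0.69 and -0.52 (adjusted p = 0.0743, 0.0194 and 0.00688, limma). Over all 12900 genes tested, 28.2% were called higher and 26.3% lower, and 32% and 31.4% with the block.

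**Figure D2:**
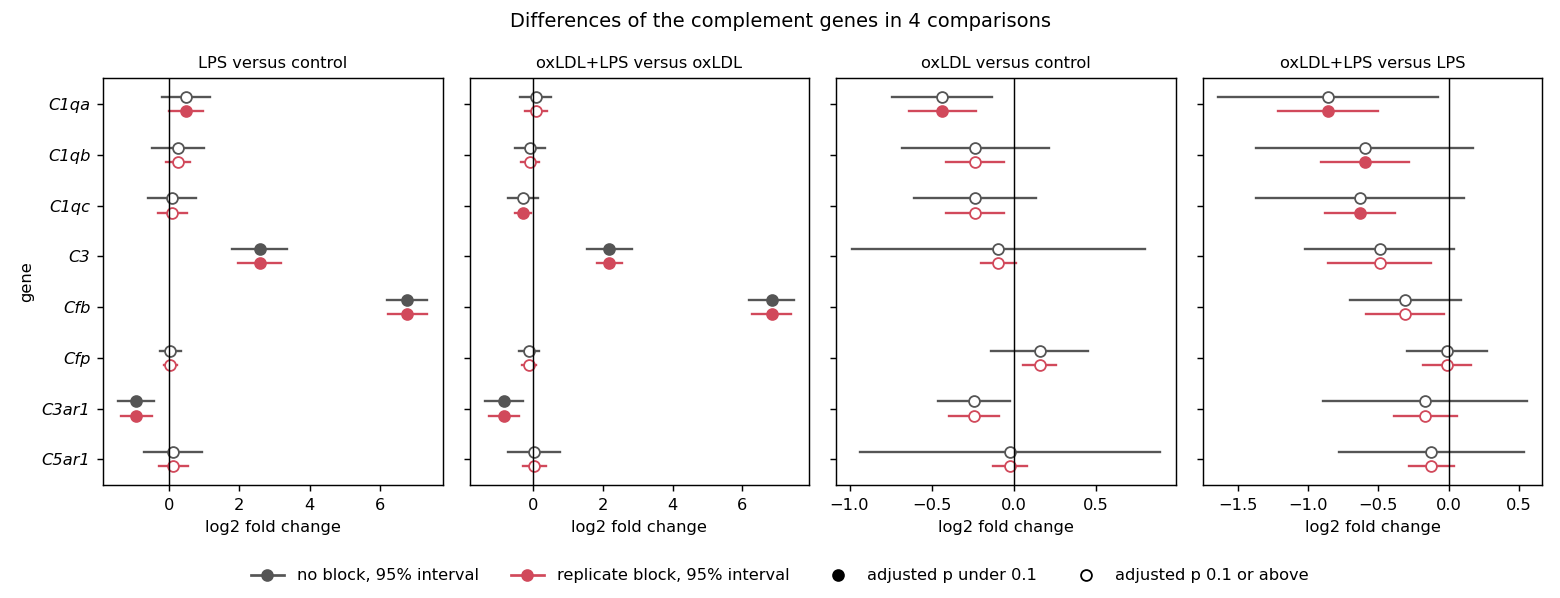
Log2 fold changes (x axis, a different range in each panel) of the 8 genes with 95% intervals in the 4 comparisons, without a block in grey and with the replicate number as a block in red, filled where the adjusted p was under 0.1. Cfb, C3 and C3ar1 are filled in both LPS panels, and the C1q genes are filled in the oxLDL+LPS versus LPS panel only with the block, with log2 fold changes of -0.86, -0.60 and -0.63. Cfb was not tested in oxLDL versus control.

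The comparison of oxLDL with control PMφs asked what lipid loading alone did. C1qa was at 1467, 1385 and 1330 in oxLDL against 1650, 1738 and 2330 in control PMφs, and the groups did not overlap. The reduction within a replicate number was 11.1%, 20.3% and 42.9%. The log2 difference was -0.44, with an adjusted p of 1 without the block and 0.0329 with it (SE 0.09, limma). The blocked value was -0.57 without replicate 1, -0.49 without replicate 2 and -0.25 without replicate 3, with adjusted p of 0.0286, 0.160 and 2.08e-05, so the call was lost without number 2 and the difference was smallest without number 3. With the block fitted over all 12 libraries the adjusted p was 1, in a fit that treats number 1 as the same cells with and without LPS. C1qb was at 4975, 3979 and 4958, 3.45%, 6.82% and 31.8% under the control libraries of the same numbers. C1qc was at 3686, 2924 and 3498, which was 2.93% above control in number 1 and 14.5% and 30.6% below it in numbers 2 and 3. Their log2 differences were -0.23 and -0.24, with adjusted p of 0.170 and 0.173 in the blocked limma fit, so neither was called. For each of the chains number 3 showed the largest difference.

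C3ar1 was also lower in every oxLDL library than in every control library, by 0.24 on the log2 scale, and its adjusted p was 0.101 with the block in limma, just above the threshold of 0.1. Cfp, at 1262, 1526 and 1626, was above control in each number by 11.8%, 8.38% and 14.6%, with a log2 difference of 0.16 and an adjusted p of 0.106 with the block. C3 and C5ar1 differed by -0.09 and -0.02 (95% intervals with the block -0.20 to 0.01 and -0.13 to 0.08). Cfb, at 3 to 6 in all 6 libraries, fell under the filter and was not tested. Without the block limma called 0 of 12751 genes (0%), with 381 at an unadjusted p under 0.05, and none of the 7 genes tested here. With the block 1.8% of genes were called higher and 2.92% lower, beside 1 of the 7 lower.

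The comparison of oxLDL+LPS with LPS PMφs asked whether prior lipid loading changed these genes under stimulation. All 8 genes had a negative log2 difference, with a median of -0.40 against -0.01 over all genes tested. Cfp turned to 0.08 with every library scaled to the same total. With 1 library left out, Cfp, C3ar1 and C5ar1 also turned positive in some fits, reaching 0.061, 0.047 and 0.115. C1qa was at 2021, 1284 and 1199 in oxLDL+LPS against 3629, 1624 and 3152 in LPS PMφs, which was 44.3%, 20.9% and 62.0% lower within replicate numbers 1, 2 and 3. C1qb was at 5691, 3452 and 4100, 30.8%, 12.3% and 52.3% lower, and C1qc was at 3496, 2133 and 2734, 36.8%, 18.6% and 47.9% lower. Each chain was lower in each of the 3 pairs, and the group ranges overlapped because LPS replicate 2 was low.

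With the replicate block the log2 differences were -0.86 for C1qa (SE 0.16, adjusted p = 0.0156, limma), -0.60 for C1qb (SE 0.14, adjusted p = 0.0375) and -0.63 for C1qc (SE 0.11, adjusted p = 0.0135). Without the block the adjusted p were 0.705, 0.750 and 0.733. The blocked calls were lost without replicate 1, with adjusted p of 0.157, 0.228 and 0.162, and without replicate 3, with 0.365, 0.375 and 0.365, where the log2 differences were between -0.87 and -0.36. Without replicate 2 all 3 were called, at -1.12, -0.80 and -0.80 (adjusted p = 4.63e-28, 1.07e-12 and 6.71e-14, limma), and each of these fits had 2 pairs and 1 residual degree of freedom per gene. Over all 12786 genes 4.42% were called higher and 8.74% lower with the block, beside 3 of the 8 genes lower. Without it limma called 0 genes (0%), with 890 at an unadjusted p under 0.05.

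**Figure D3:**
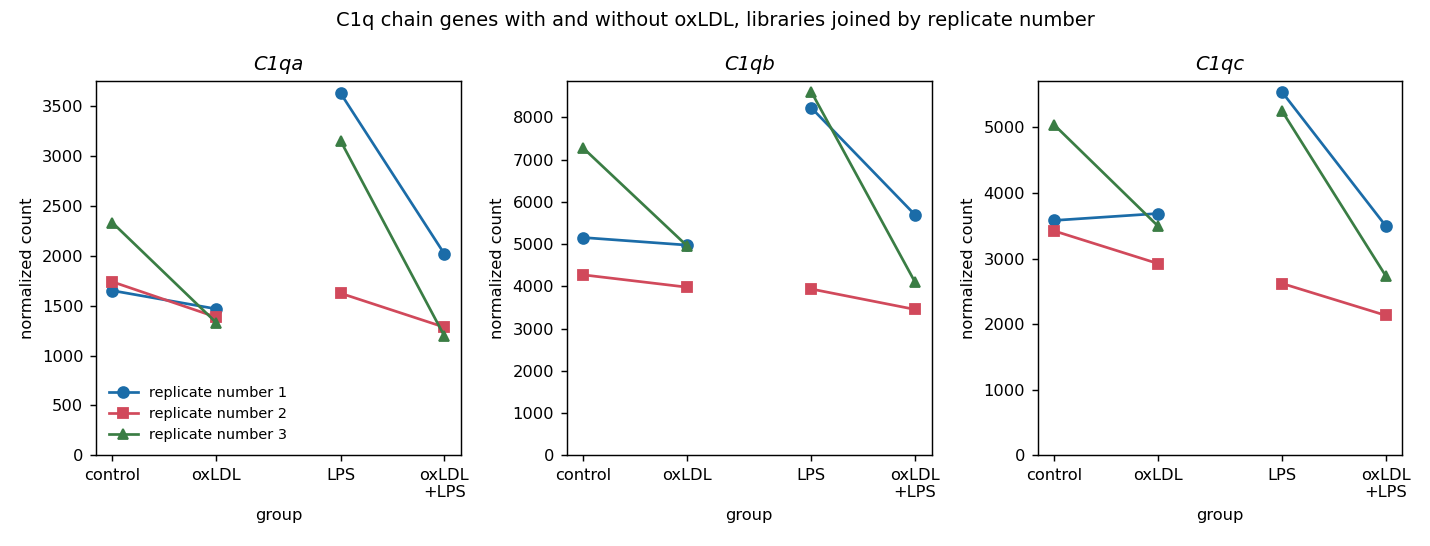
Normalized counts (y axis, from 0) of C1qa, C1qb and C1qc, with lines joining libraries of the same replicate number without oxLDL and with it, on the left without LPS and on the right with LPS. All lines fall except that of C1qc in replicate 1 without LPS, which rises by 2.93%.

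C3 was at 11145, 11701 and 8829 in oxLDL+LPS and at 19191, 10879 and 15315 in LPS PMφs. It was lower in replicates 1 and 3, by 41.9% and 42.4%, and 7.56% higher in replicate 2, with a log2 difference of -0.49 and an adjusted p of 0.102 with the block, so it was not called. Cfb showed the same split, 23.7% and 35.3% lower in numbers 1 and 3 and 6.39% higher in number 2, with a log2 difference of -0.31 (adjusted p = 0.168 with the block, limma). The summed mesothelial and fibroblast markers were 29060, 13693 and 5765 in LPS and 16580, 14636 and 4861 in oxLDL+LPS libraries, so they too were lower in numbers 1 and 3 and higher in number 2, and their part in these values was not tested. C3ar1, C5ar1 and Cfp differed by -0.17, -0.12 and -0.01, with adjusted p of 0.343, 0.341 and 0.945 with the block. The 95% interval of Cfp with the block was -0.18 to 0.16.

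Whether oxLDL changed the response to LPS was tested as an interaction over all 12 libraries. None of the 8 genes was called. The interaction was -0.42 for C1qa (95% interval -1.28 to 0.44), -0.36 for C1qb (-1.28 to 0.56), -0.40 for C1qc (-1.25 to 0.45) and -0.40 for C3 (-1.47 to 0.68). It was 0.07 for Cfb (-0.73 to 0.87) and 0.08 for C3ar1 (-0.69 to 0.84). Without a block limma called 0 of 13482 genes (0%), with 418 at an unadjusted p under 0.05. With the block fitted within each LPS state, 0.408% were called higher and 0.682% lower. The smallest adjusted p among the 8 genes was then 0.32, for C1qc.

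Among the chains of C1q, C1qb and C1qc kept close proportions to each other, and C1qa less so. The normalized count of C1qb was 1.25 to 1.64 times that of C1qc in all 12 libraries, while each gene on its own varied by 2.49 and 2.60 times between its lowest and highest library. C1qb was 2.27 to 3.73 times C1qa. The ratio of C1qc to C1qa was 2.10 ± 0.11 (SD, n = 3) in control, 2.42 ± 0.27 in oxLDL, 1.60 ± 0.07 in LPS and 1.89 ± 0.34 in oxLDL+LPS libraries. The LPS values, 1.53 to 1.66, lay under all control values, 1.97 to 2.17. The ratio was not tested.

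Over the 12 libraries, the gene whose log2 pattern lay nearest to C1qb among 13482 genes was C1qc, and the nearest to C1qc was C1qb, with a root mean square difference of 0.11 on the centred log2 scale. C1qa ranked 3rd from C1qb, at 0.21, and 17th from C1qc, at 0.25. The nearest to C1qa were Pmvk at 0.18, C1qb at 0.21 and Msmo1 at 0.23, and after C1qb the nearest to C1qc were Sepp1 at 0.18 and Frmd4b at 0.21. Dbi, at 0.21, was the other neighbour of C1qb. For C3 they were Stk39 at 0.24, C1ra at 0.28 and Pvrl2 at 0.28, for Cfb Usp18 at 0.27, Irf7 at 0.30 and Ifi47 at 0.36, and for C3ar1 1700003F12Rik at 0.12, Scarb1 at 0.16 and Tob1 at 0.17. Cfp lay nearest to Fbxw5 at 0.08, Zfpl1 at 0.08 and Npepl1 at 0.09, and C5ar1 to Ptges3l, Gm10076 and Ccl6, all at 0.23. The receptor C5ar1 lay nearer to C1qb (0.33) than to C3ar1 (0.63).

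C5ar1 varied more between replicate numbers than between groups. It was lowest in replicate 2 of each group, at 1511, 1598, 2060 and 1908 in control, oxLDL, LPS and oxLDL+LPS PMφs. The libraries numbered 1 and 3 ranged from 2666 to 3908. Cfp was the steadiest of the 8 genes, with a highest value 1.44 times its lowest.

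A list of 48 other complement genes was examined, of which 47 were in the table and 22 were tested in LPS against control. The 25 that stayed under the filter did not exceed 11 in any library, and 7 were at 0 throughout. They included the lectins Mbl1 and Mbl2, factor D (Cfd, at most 8), factor I (Cfi, at most 1), and of the terminal pathway Hc, which encodes C5, C6, C7, C8a, C8b and C9, at most 3. With LPS 5 of the 22 were called higher and 4 lower, against the 31.4% and 30.3% of all genes. In oxLDL+LPS against oxLDL 5 of 21 were called higher and 4 lower, and all 9 were the genes called without oxLDL, in the same directions.

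The proteases of the classical pathway were among those that rose. C1ra, which encodes the C1r partner of C1q, was at 199, 163 and 82 in control and at 751, 610 and 544 in LPS PMφs, a log2 difference of 2.17 (SE 0.31, adjusted p = 0.000703, limma). C2, which supplies the protease of the classical C3-cleaving enzyme, was at 13, 13 and 14 against 53, 40 and 54 (log2 difference 1.79, adjusted p = 0.000629), and 42.8% of its exon bases are shared with Gm20547. C4b, at 319, 962 and 1001 in control and 1223, 1429 and 1492 in LPS PMφs, differed by 1.03 (adjusted p = 0.0638, limma). Its log2 difference was 1.94 in number 1, which links different cells here, and 0.57 and 0.58 in numbers 2 and 3. Reads of C4b and its near-identical copy C4a may have been divided between them. C1s1, the partner of C1ra, differed by 0.95 and was called only with the block (adjusted p = 0.156 without, 0.000612 with it, limma). In LPS comparisons that block also joins the unlike libraries numbered 1.

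Regulators moved in both directions. Serping1, which encodes the C1 inhibitor, was at 165, 162 and 56 in control and at 736, 353 and 218 in LPS PMφs (log2 difference 1.74, adjusted p = 0.0261, limma). Cr1l, which encodes the membrane regulator Crry, rose by 0.72 (adjusted p = 0.00249). Cd59a, which encodes an inhibitor of the terminal complex, fell by 0.64 (adjusted p = 0.0538). The block added the regulators Clu at 0.93 and Cd55 at -0.43 to the calls, and Fcna, a gene of the lectin pathway, at 0.22. In oxLDL+LPS against oxLDL it added C1s1 at 0.73, Clu at 0.73 and Cd55 at -0.62. These blocked calls rely partly on number 1, which links different cells across LPS. Serping1, C1ra, C1s1, C3, Clu, Cd55, Cd59a and Fcna were each lowest in replicate 3 of control PMφs, whereas Cr1l and C4b were highest there. The sum of mesothelial and fibroblast markers given above was lowest in that library too, and its part in these values was not tested.

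C5ar2, which encodes the second C5a receptor, fell more than any other complement gene tested. It was at 313, 175 and 277 in control and at 44, 10 and 14 in LPS PMφs, a log2 difference of -3.67 (SE 0.51, adjusted p = 0.000594, limma), and at 254, 179 and 276 in oxLDL against 52, 15 and 30 in oxLDL+LPS PMφs, a difference of -2.97 (adjusted p = 0.00107). C5ar1, which lies next to it on chromosome 7, had differences of 0.12 and 0.02 in the same comparisons. Cd93, once studied as a C1q receptor, fell from 9659, 12167 and 11114 to 2377, 2550 and 2275, a log2 difference of -2.19 (SE 0.11, adjusted p = 3.07e-06). The integrin genes of complement receptors, Itgam and Itgax, differed by 0.01 (95% intervals -0.28 to 0.31 and -0.39 to 0.40).

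**Figure D4:**
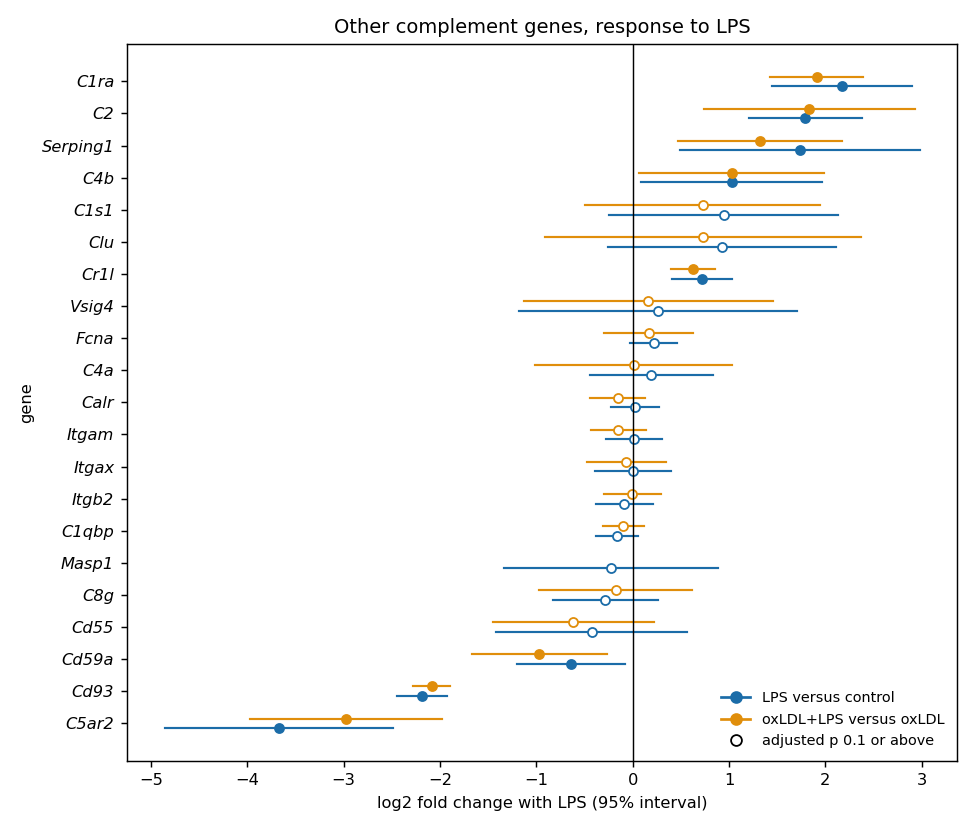
Log2 fold changes with LPS (x axis, 95% intervals) of the other complement genes reported here (y axis, ordered by the fold change in LPS versus control), without oxLDL in blue and with it in orange, filled where the adjusted p was under 0.1. C1ra, C2, Serping1, C4b and Cr1l are filled to the right of 0 and Cd59a, Cd93 and C5ar2 to its left in both comparisons.

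With oxLDL none of the other complement genes was called without the block. With it C4b and Clu were called lower in both comparisons. They were 2 of 22 tested in oxLDL versus control and 2 of 21 in oxLDL+LPS versus LPS. Over all genes tested, 2.92% and 8.74% were called lower with the block. C4b was at 263, 815 and 708 in oxLDL and 913, 1376 and 1035 in oxLDL+LPS PMφs, which was under its partner library in all 6 pairs, with log2 differences of -0.34 (adjusted p = 0.0212, limma) and -0.33 (adjusted p = 0.0709). Clu, which encodes the regulator clusterin, differed by -0.39 (adjusted p = 0.0795) and -0.59 (adjusted p = 0.0229). Its values were 436, 463 and 138 in oxLDL against 469, 583 and 228 in control PMφs, and 695, 998 and 184 in oxLDL+LPS against 1047, 1182 and 350 in LPS PMφs. Number 3 was lowest in each group, as it was for the summed mesothelial and fibroblast markers. That sum was 18544, 13136 and 5327 in oxLDL against 22573, 15656 and 5131 in control libraries, and its part in the level of Clu was not tested.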

How the data were processed

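RNA of 12 PMφ libraries, 3 per group, was sequenced as poly(A) libraries on a NovaSeq. Per the submitters' processing notes and the paper's methods, the authors used Trimmomatic 0.32 for trimming, STAR 2.5.1b for alignment to mm10 (GRCm38), featureCounts for exon counts of GENCODE genes, and DESeq2 for their own group comparisons. The deposited score of each gene is its count over a scaling factor of the library, rounded, so models for raw counts, which had been planned, were not run. Reads were not recovered from it, and the normalized totals are not a measure of depth. Depth is thus not known, and no counting intervals are given. The sources do not state strand-aware counting, which leaves genes with an antisense neighbour uncertain.

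Groups were compared with limma 3.58.1 (R 4.3.3; lmFit and eBayes with a trend) on log2(value + 1), for genes with at least 10 in at least 3 libraries of the fit. P-values were adjusted over all genes by Benjamini-Hochberg and called under 0.1. The script was tested on simulated data. An exact permutation test of 3 against 3 cannot go below 0.1. The complement genes and gene lists were chosen with earlier results of these data known. The genes named are the 8 complement genes, every other listed complement gene called in a comparison, the 3 nearest genes of each of the 8, and Tnf, Il1b and Cd36 as checks. Others given as values without a call (Itgam, Itgax, genes under the filter) were named after their values were seen. A gene that falls under the rule is counted but not reported here.

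Replicate numbers were taken from the labels. Deviations from the group means correlated at 0.691 to 0.731 between control and oxLDL libraries of the same number, at 0.664 to 0.733 between LPS and oxLDL+LPS libraries, at 0.41 to 0.617 between control and LPS libraries, and at 0.33 to 0.665 between oxLDL and oxLDL+LPS libraries, so the fit with the number as a block is given where it changes a call. Positions and exon lengths are those of GENCODE M21, and counting used an earlier release. No protein sequences were used here.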

Additional observations from a re-analysis of the deposited data

How the results depend on the processing

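The reads behind the values were not recovered, so the limit that depth sets was not measured. Across every alternative run in which they were tested, Cfb and C3 kept a called rise and C3ar1 a called fall with LPS. Cfb was tested in 13 alternatives of each LPS comparison, against 21 for C3 and C3ar1. Where a filter was used, Cfb entered only through its LPS libraries, where it was high, so its runs say little about how stable the call is. Scaling every library to the same total raised the other complement genes called from 9 to 15 in LPS versus control and from 9 to 14 in oxLDL+LPS versus oxLDL, and the complement genes called among the 8 in the latter from 3 to 6, while the share of all calls that were higher fell from 50.9% to 23.5% and from 51.7% to 23.7%. Voom weights, which also use the total, gave 14, 14 and 6. Under the same total and voom, differences reversed in LPS versus control for C1qb (-0.22 and -0.22), C1qc (-0.38 and -0.38), Cfp (-0.44 and -0.44) and C5ar1 (-0.36 and -0.36), in oxLDL+LPS versus oxLDL for C1qa (-0.32 and -0.32) and C5ar1 (-0.37 and -0.37), and in oxLDL+LPS versus LPS for Cfp (0.078 and 0.078). With a pseudocount of 5 the interaction of Cfb reversed to -0.10. The cause was not tested.

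The replicate block gave 1 of the 8 genes and 2 other complement genes in oxLDL versus control, and 3 and 2 in oxLDL+LPS versus LPS, where the fit without it gave 0. Over all genes the block raised the calls in these comparisons from 0 to 601 and from 0 to 1682. Fitted over all 12 libraries with the block, the counts were 0 and 0 in oxLDL versus control, where the calls over all genes fell to 5, 3 and 1 in oxLDL+LPS versus LPS, with 1015 over all genes, and 14 other complement genes in LPS versus control. The fit over all 12 libraries treats number 1 as the same cells with and without LPS, which does not hold here. The block changed no other call among the 8 genes than those given above.

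With 1 library left out at a time, the 8 genes gave 2 to 5 calls in LPS versus control and 2 to 3 in oxLDL+LPS versus oxLDL. The counts of 2 arose where Cfb reached 10 in only 2 libraries and was not tested, and the 5 without LPS replicate 2. The other complement genes gave 7 to 11 calls in each. Differences that were not called changed sign in LPS versus control for C1qc (-0.164 to 0.447), Cfp (-0.064 to 0.134) and C5ar1 (-0.263 to 0.397), in oxLDL+LPS versus oxLDL for C1qa (-0.167 to 0.210), C1qb (-0.294 to 0.067) and C5ar1 (-0.309 to 0.260), in oxLDL versus control for C3 (-0.476 to 0.237) and C5ar1 (-0.411 to 0.309), and in oxLDL+LPS versus LPS for Cfp (-0.102 to 0.061), C3ar1 (-0.442 to 0.047) and C5ar1 (-0.347 to 0.115). The interaction changed sign for Cfb (-0.115 to 0.336), C3ar1 (-0.199 to 0.290) and C5ar1 (-0.431 to 0.288).

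Leaving out a whole replicate number under the block left 2 pairs and 1 residual degree of freedom per gene, and the calls ranged from 0 to 4 of the 8 genes and 0 to 4 other genes in oxLDL versus control, and from 0 to 5 and 0 to 5 in oxLDL+LPS versus LPS. Without number 1, C1qc was at -0.164 and C5ar1 at -0.0029 in LPS versus control, C1qa at -0.129 and C5ar1 at -0.071 in oxLDL+LPS versus oxLDL, and the interaction of Cfb at -0.108, with or without the block. Leaving out number 1 without the block was chosen after seeing the data. With the block, C5ar1 was at -0.039 and -0.091 in the 2 LPS comparisons without number 2 and at 0.015 in oxLDL versus control without number 3, and Cfp at 0.048 in oxLDL+LPS versus LPS without number 3.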
